A study of Mus musculus with 4 samples.

Results

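Of the 31053 mouse genes in the reference, 10 genes of neutrophil granules and neutrophil maturation were followed through 4 droplet-based libraries. They were Camp, Ngp, Ltf and Lcn2, taken as the early granule genes, Retnlg, Mmp8, Mmp9 and Il1b, taken as the late genes of mature cells, and S100a8 and S100a9, which neutrophils carry at every later stage. They were chosen by name and read only in barcodes with over 50% of their unique molecular identifiers (UMIs) on mouse genes, called mouse barcodes here. All 10 were present in the count tables.

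The study asked how human immune cells respond to spinal cord injury (SCI) in huNSG-SGM3 mice, which are immunodeficient hosts given human CD34+ cord blood stem cells. Every host carried Prkdcscid and IL2rgtm1Wjl on the NOD.Cg background together with the insertion Tg(CMV-IL3,CSF2,KITLG)1Eav of the MloySzJ line, so the controls too had the 3 cytokine transgenes driven by a CMV promoter, and hosts were 15 weeks old by the labels. Sorted cells came from naïve blood, from blood taken 7 days after a T9 laminectomy without injury (sham), from blood taken 7 days after T9 contusive SCI, and from T8-T10 cord of SCI mice at the same time. The hosts lack lymphocytes of their own but keep mouse granulocytes, monocytes, platelets and red cells. Red cells of the blood were lysed. Cord tissue was cut up, digested with enzymes in the warm and enriched with magnetic beads, steps that blood did not go through. Tissue and preparation therefore cannot be told apart between cord and blood. The sort was for human CD45, so the mouse cells described here are those that came through a gate meant to leave them out, and their numbers are not a census of mouse blood. Each library pooled cells of different animals and there was 1 library per group, so no comparison between conditions has a replicate check and no p-value is given. Naïve and sham hosts were male and the SCI libraries were pooled from males and females, so that host sex and injury cannot be told apart.

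Neutrophils fill their granules in a fixed order while they mature in the bone marrow. Primary (azurophil) granule proteins such as myeloperoxidase come first, then the specific granule proteins of the myelocyte stage (cathelicidin, neutrophilic granule protein, lactoferrin, lipocalin-2), then gelatinase granule proteins, and transcription of the early genes is largely shut by the time a cell enters the blood. Circulating mature cells carry S100A8 and S100A9 in the cytosol and are a source of interleukin-1β when activated.

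The 10 genes lie on 4 chromosomes of GRCm38, all annotated as protein coding. Camp (chr9:109847379-109849617, minus strand, 4 exons), which encodes the mouse cathelicidin, Ngp (chr9:110419747-110423012, plus strand, 4 exons), which encodes neutrophilic granule protein, and Ltf (chr9:111019271-111042767, plus strand, 17 exons in the longest transcript), which encodes the iron-binding lactoferrin, fall within 1195389 bp of chromosome 9 that holds 31 protein-coding genes. S100a8 (chr3:90668978-90670035, plus strand) and S100a9 (chr3:90692632-90695721, minus strand) are neighbours, with 22596 bp and 0 protein-coding genes between them. Lcn2 (chr2:32384633-32388252, minus strand), Retnlg (chr16:48872621-48874496, plus strand), Mmp8 (chr9:7558456-7568485, plus strand), Mmp9 (chr2:164940780-164955850, plus strand) and Il1b (chr2:129364570-129371139, minus strand) are spread over chromosomes 2, 9 and 16.

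The bases just upstream of Camp, Ngp, Ltf and Il1b are shown because the first 3 genes were the members that differed most between sham and SCI blood and Il1b was the member past 2-fold higher in the cord's neutrophil-like barcodes, a direction that reversed under 3 other choices of barcodes. They come from RefSeq windows on GRCm38.p6, restricted to the bases before the annotated gene, and are printed 5′ to 3′ on the strand of the gene. Capitals mark a match to TTGCNNAA on either strand, the core of a C/EBP site. Camp lies downstream of chr9:109849618-109849706 (minus strand), Ngp of chr9:110419558-110419746 (plus strand), Ltf of chr9:111019042-111019270 (plus strand) and Il1b of chr2:129371140-129371389 (minus strand).
Camp: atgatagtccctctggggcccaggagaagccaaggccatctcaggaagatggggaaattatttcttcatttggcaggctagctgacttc
Ngp: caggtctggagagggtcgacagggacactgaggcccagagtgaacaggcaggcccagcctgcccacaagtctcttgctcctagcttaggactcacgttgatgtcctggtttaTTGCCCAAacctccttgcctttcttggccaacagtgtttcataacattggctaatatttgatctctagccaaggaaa
Ltf: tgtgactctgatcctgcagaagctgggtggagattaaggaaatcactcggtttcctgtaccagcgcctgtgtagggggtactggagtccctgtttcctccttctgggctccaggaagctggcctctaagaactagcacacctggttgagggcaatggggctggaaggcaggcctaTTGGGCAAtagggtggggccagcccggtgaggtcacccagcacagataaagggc
Il1b: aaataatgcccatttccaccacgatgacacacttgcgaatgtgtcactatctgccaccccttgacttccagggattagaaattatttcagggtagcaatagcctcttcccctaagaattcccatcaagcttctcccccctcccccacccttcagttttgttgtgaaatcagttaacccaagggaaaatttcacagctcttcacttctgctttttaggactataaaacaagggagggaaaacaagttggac
In the whole 250-base windows, 6 of the 9 members with an entry (Ngp, Ltf, Lcn2, Retnlg, Mmp8 and S100a9) held the C/EBP letters, against 9.56% of all 32851 windows of that length. GAGGAA on either strand, the core that PU.1 binds, was in 4 of the 9 (Ltf, Lcn2, Mmp8 and S100a8), against 23.3% of all windows. No match was found for either motif in the windows of Camp and Il1b. The whole windows of Camp, Ngp and Ltf reach into the annotated gene, since 89, 189 and 229 of their 250 bases lie before it. These are matches of letters, not measured binding.

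The naïve, sham and SCI blood libraries held 1411, 1990 and 1230 mouse barcodes, or 17.4%, 28.6% and 16.4% of all barcodes, and the cord library held 93 (40.3%). The median mouse barcode had 2048, 2029.5 and 1816.5 mouse UMIs in the 3 blood libraries and 26533 in the cord. At most 1 mouse barcode sequence was shared by any pair of libraries. Clustering without the members gave 13 clusters, of which 2 were neutrophil-like by markers that are not members (Csf3r, Cxcr2, Il1r2 and 23 others). The larger held 1563 barcodes and was led by Gm5483, Amer2 and BC100530. The smaller held 229, was led by interferon-stimulated genes such as Ifit3b and Ifit1, and had no marker of the list among its leading genes although 24 of the 26 were detected.

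The neutrophil-like barcodes were very unequal in number. There were 18 of 1411 mouse barcodes in naïve blood (1.28%, exact 95% interval 0.758 to 2.01), 1204 of 1990 in sham blood (60.5%, 58.3 to 62.7), 567 of 1230 in SCI blood (46.1%, 43.3 to 48.9) and 3 of 93 in SCI cord (3.23%, 0.67 to 9.14). All intervals in this text cover counting error only. Erythroid-like barcodes were 85.5% of the naïve mouse barcodes, against 18.2% in sham and 28.0% in SCI blood, and 94.6% of the cord mouse barcodes were macrophage-like. The neutrophil-like barcodes gave 17969, 2272681, 913623 and 5852 UMIs outside ribosomal and mitochondrial genes, so 3 counts were worth 167 CPM (counts scaled to a total of 1000000) in naïve blood, 1.32 in sham, 3.28 in SCI blood and 513 in the cord. Statements about naïve blood and the cord rest on these small sums.

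The label of the cells was checked against markers of other cells. The neutrophil-like clusters were named from the 26 neutrophil markers, so the presence of these is no separate check of the label. Detected here means at least 1 UMI in the sum of a library, not in 10% of barcodes as for clusters. In sham and SCI blood all 26 were detected in the neutrophil-like barcodes, with summed levels of 29706 and 34533 CPM. Naïve blood had 24 of 26 at 30942 CPM. The cord had 17 of 26 at 26999 CPM, with Ly6g, Cd177, G0s2 and 6 others at 0. Of 11 macrophage markers, 2 were detected in naïve blood, 4 in sham, 4 in SCI blood and 2 in the cord, at summed levels of 1057, 291, 516 and 1880 CPM, the last on 11 UMIs. C1qa, C1qb and C1qc were at 0 in the neutrophil-like barcodes of all 4 libraries. The part of macrophage RNA in the results was not tested. Erythroid markers moved with the groups, at a summed 1224 CPM in naïve, 20993 in sham, 412 in SCI blood and 0 in the cord; their part in the results was not tested directly, but leaving haemoglobin genes out of the total changed no count of members past 2-fold.

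Summed over all mouse barcodes, the members were sparse in naïve blood and the cord. They made up 0.306% of mouse-barcode UMIs in naïve blood, 10.1% in sham, 10.0% in SCI blood and 0.0733% in the cord. S100a9 stood at 1893, 62582, 60249 and 335 CPM in that order, and Il1b at 124, 3375, 3105 and 204 CPM. A gene was counted as past 2-fold when the CPM differed at least 2-fold and both libraries together held at least 20 UMIs. All 10 members were higher in sham than in naïve blood by this rule, as were 94.8% of all genes tested, and all 8 members with enough counts were higher in SCI than in naïve blood, as were 93.5% of all genes. All 8 with enough counts were lower in the cord than in SCI blood, from a log2 ratio of -3.92 for Il1b to -10.75 for Retnlg, against 11.7% of all genes. Sums over all mouse barcodes cannot tell fewer neutrophils from less RNA per neutrophil, and with the shares of cells given above the rest of the text keeps to the neutrophil-like barcodes.

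**Figure D1:**
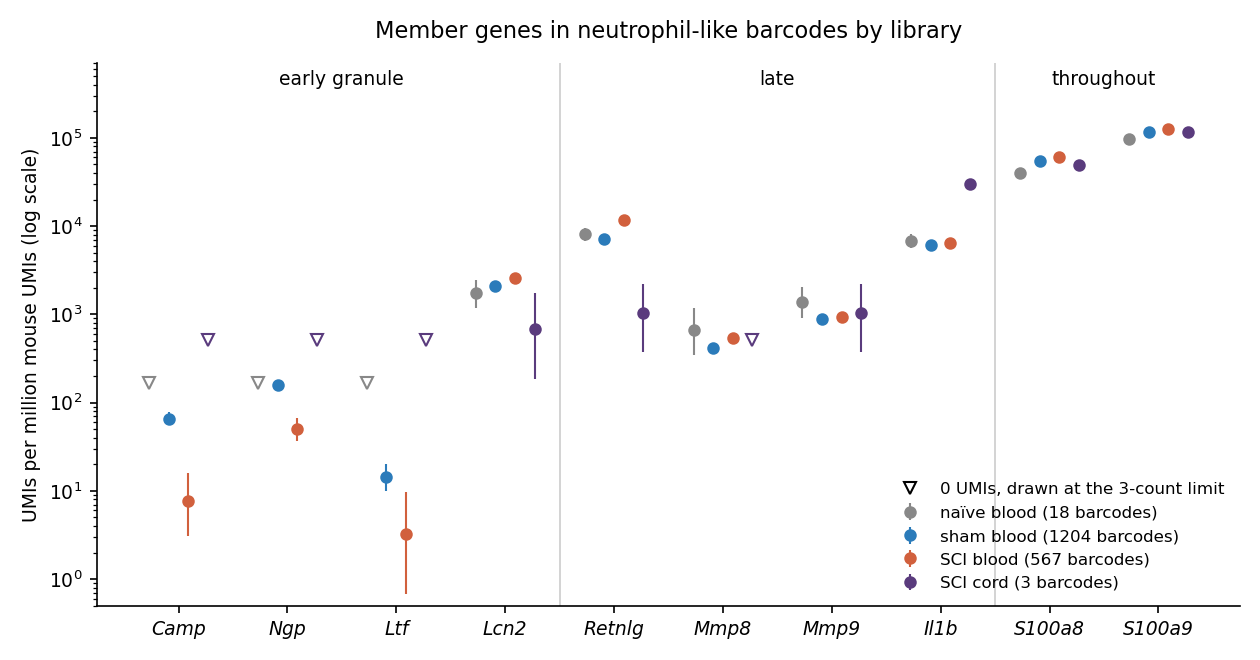
Level of each member in neutrophil-like barcodes (CPM, log axis) in the 3 blood libraries and the cord library; bars through the points are 95% counting intervals and open triangles stand for 0 UMIs, drawn at the 3-count limit. S100a9 sits between 96889 and 126389 CPM in all 4 libraries, while Camp, Ngp and Ltf are at 0 UMIs in naïve blood and the cord, where the 3-count limit is 167 and 513 CPM.

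The early granule genes other than Lcn2 were rare in every library. Camp gave 0 UMIs in naïve blood, 150 in sham (66.0 CPM), 7 in SCI blood (7.66 CPM) and 0 in the cord. Ngp gave 0, 358 (158 CPM), 46 (50.3 CPM) and 0 UMIs. Ltf gave 0, 33 (14.5 CPM), 3 (3.28 CPM) and 0 UMIs. All 3 were therefore higher in sham than in SCI blood. Their limits of 167 and 513 CPM in naïve blood and the cord lie above the sham levels of all 3, so a level like that of sham could not have been seen there.

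Lcn2, which encodes the siderophore-binding protein lipocalin-2 (NGAL), was much more widely detected. It gave 31 UMIs in naïve blood (1725 CPM), 4767 in sham (2098 CPM), 2351 in SCI blood (2573 CPM) and 4 in the cord (684 CPM). At least 1 UMI was present in 63.5% of sham and 64.4% of SCI neutrophil-like barcodes, against 27.8% in naïve blood. The naïve barcodes were shallower, with a median of 950.5 mouse UMIs against 1759 in sham and 1556 in SCI blood. The part of depth in these shares was not tested. In naïve blood the level rested on 5 of 18 barcodes, and 17 of the 31 UMIs came from the richest.

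The late genes were present in every blood library. Retnlg, which encodes a resistin-like protein of mature neutrophils, gave 145 UMIs in naïve blood (8069 CPM), 16423 in sham (7226 CPM), 10723 in SCI blood (11737 CPM) and 6 in the cord (1025 CPM). Mmp8, the neutrophil collagenase, gave 12 (668 CPM), 952 (419 CPM), 496 (543 CPM) and 0 UMIs. Mmp9, the gelatinase of tertiary granules, gave 25 (1391 CPM), 2022 (890 CPM), 858 (939 CPM) and 6 UMIs (1025 CPM). Retnlg was thus highest in SCI blood, whereas the 2 proteinase genes were highest in naïve blood, on 12 and 25 UMIs. For Mmp8 the log2 intervals against naïve blood covered 0, at -1.48 to 0.28 in sham and -1.12 to 0.66 in SCI blood. For Mmp9 they were -1.21 to -0.01 and -1.14 to 0.07.

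Il1b, which encodes the precursor of interleukin-1β, gave 121 UMIs in naïve blood (6734 CPM), 13854 in sham (6096 CPM), 5906 in SCI blood (6464 CPM) and 174 in the cord (29733 CPM). The 3 blood libraries were close to each other, with at least 1 UMI in 94.4%, 97.8% and 98.2% of neutrophil-like barcodes, and the cord stood apart.

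S100a8 and S100a9 encode the subunits of calprotectin, a calcium- and zinc-binding protein. S100a8 gave 721, 123159, 55030 and 287 UMIs in the same order of libraries, or 40125, 54191, 60233 and 49043 CPM. S100a9 gave 1741, 265734, 115472 and 682 UMIs, or 96889, 116925, 126389 and 116541 CPM. Both were in at least 98.6% of the neutrophil-like barcodes of every blood library, and the ratio of S100a9 to S100a8 UMIs was 2.41, 2.16, 2.10 and 2.38.

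SCI blood was compared with sham blood in the neutrophil-like barcodes to ask whether the members differed after injury. Camp in SCI over sham was at a log2 ratio of -3.01 (95% interval -4.45 to -2.03), Ngp was at log2 -1.63 (-2.12 to -1.20) and Ltf at log2 -1.94 (-4.49 to -0.47). These were the 3 members past 2-fold, all lower in SCI, against 6.89% of the 5805 genes tested in either direction and 5.05% lower. The other 7 were within 2-fold and all on the higher side in SCI. Retnlg was at log2 0.70 (0.66 to 0.73), Mmp8 at 0.37 (0.21 to 0.53) and Lcn2 at 0.30 (0.22 to 0.37). Mmp9 was at 0.08 (-0.04 to 0.19), Il1b at 0.08 (0.04 to 0.13), S100a8 at 0.15 (0.14 to 0.17) and S100a9 at 0.11 (0.10 to 0.12). The median over the members was 0.10, beside -0.10 over all genes tested, of which the middle 80% ran from -0.71 to 0.45.

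**Figure D2:**
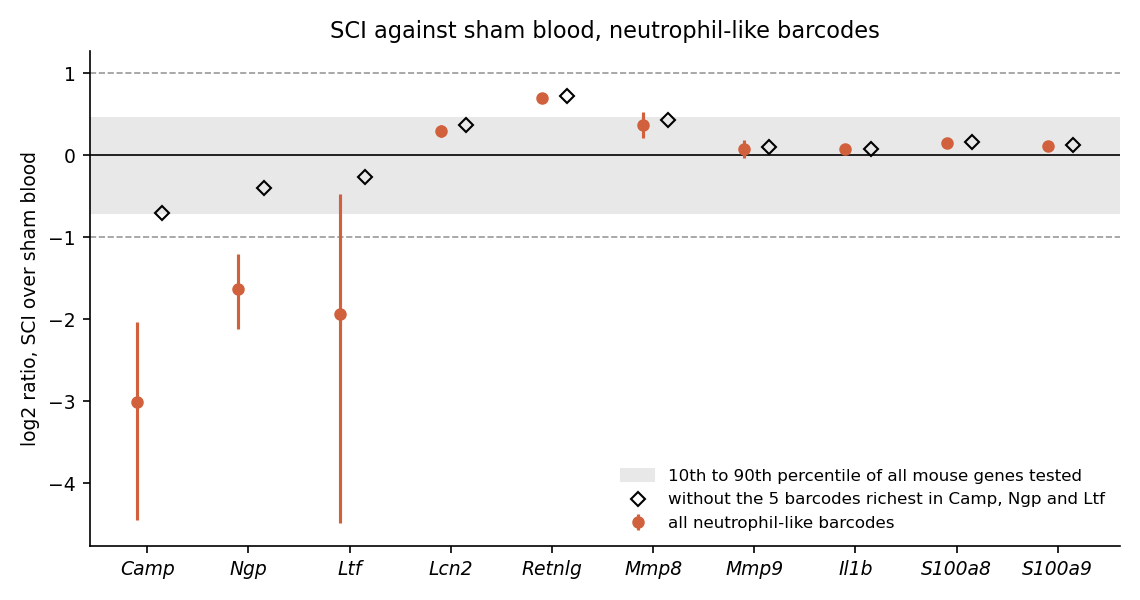
Log2 ratio of SCI over sham blood for each member in neutrophil-like barcodes, with 95% counting intervals, as summed and without the 5 barcodes richest in Camp, Ngp and Ltf of each library. As summed, Camp, Ngp and Ltf lie at -3.01, -1.63 and -1.94, and without those barcodes at -0.71, -0.40 and -0.27.

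The difference in Camp, Ngp and Ltf came from very few sham barcodes. At least 1 UMI of the 3 was in 100 of 1204 sham barcodes (8.31%) and in 46 of 567 SCI barcodes (8.11%), so the shares of barcodes were close. The sham barcodes held 541 such UMIs and the SCI barcodes 56. The 5 richest sham barcodes held 399 of the 541 (73.8%), with 234, 128, 17, 13 and 7 each, whereas the richest SCI barcodes held 5, 4 and 2. At least 3 such UMIs were found in 15 sham barcodes (1.25%, exact 95% interval 0.699 to 2.05) and in 2 SCI barcodes (0.353%, 0.0427 to 1.27), and these intervals overlap. Without the 5 richest of each library no member was past 2-fold between SCI and sham blood, with Camp at log2 -0.71, Ngp at -0.40 and Ltf at -0.27; this setting was added after the values were seen.

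**Figure D3:**
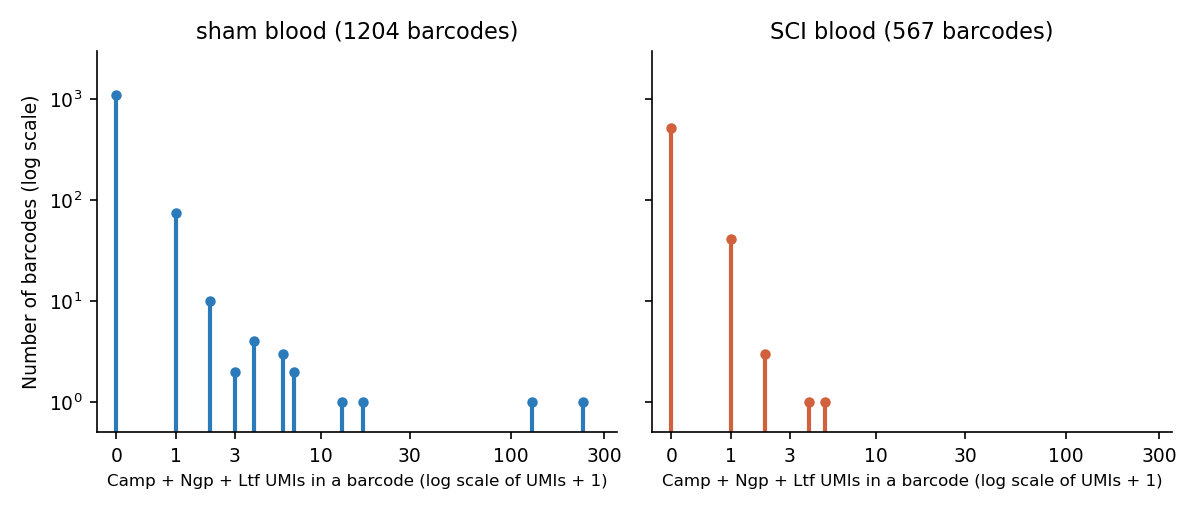
Neutrophil-like barcodes of sham and SCI blood by their number of Camp, Ngp and Ltf UMIs (log axis). Most barcodes hold 0 such UMIs, at 1104 of 1204 in sham and 521 of 567 in SCI blood. Among barcodes with at least 1, 75 of 100 in sham and 41 of 46 in SCI blood hold 1. In sham blood 4 barcodes hold 10 or more, and no SCI barcode does.

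The richest sham barcode held 108 Camp, 111 Ngp, 15 Ltf and 116 Lcn2 UMIs among 6141 mouse UMIs, with 188 Retnlg, 802 S100a8 and 1403 S100a9 UMIs and 0 of Il1b. The next held 20 Camp, 100 Ngp, 8 Ltf and 96 Lcn2 UMIs among 5506, again with 0 of Il1b. Both had over 99% of their UMIs on mouse genes, neither was called a doublet, and both had 0 UMIs of the proliferation genes Mki67, Top2a, Stmn1 and Tubb5. The 15 sham barcodes with at least 3 such UMIs differed from the 1104 without any in other genes as well. Retnlg stood at 39206 against 6020 CPM, Mmp8 at 2284 against 354, Lcn2 at 8641 against 1866 and S100a8 at 129766 against 50841. Il1b was lower in them, at 913 against 6301 CPM, as was Csf3r, the receptor for G-CSF, at 658 against 2561. Their median depth was 3478 UMIs against 1736.5, and all come from the same library, so that these values are a description. Chil3, a chitinase-like protein of specific granules, stood at 639 against 15 CPM in the same barcodes.

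Early and late genes were also set against each other within each library, although the late genes did not move as a group, since Retnlg and Mmp8 were higher and Il1b lower in the barcodes richest in early genes. The early genes made up 31 of 334 early plus late UMIs in naïve blood (9.28%, exact 95% interval 6.39 to 12.9), 13.8% in sham (13.4 to 14.1), 11.8% in SCI blood (11.4 to 12.3) and 4 of 190 in the cord (2.11%, 0.577 to 5.30). The naïve share was 4.91% when a change of numerical precision in the clustering took 1 barcode out, and 16.0% without marked doublets, both outside its interval. The early share was mostly Lcn2 in every library, which supplied 100%, 89.8%, 97.7% and 100% of the early UMIs. Camp, Ngp and Ltf together gave 0, 16.3, 3.11 and 0 UMIs per 1000 late UMIs. The ratio of Retnlg to Il1b UMIs was 1.20 in naïve blood and 1.19 in sham, against 1.82 after SCI and 0.0345 in cord barcodes.

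Within blood, barcodes with more Retnlg had less Il1b. Each neutrophil-like barcode was thinned to 500 UMIs, which left out 3 sham and 1 SCI barcodes, and barcodes were grouped by thinned Retnlg at 0, at 1 to 4 and at 5 or more UMIs. Mean Il1b went from 3.81 to 3.19 to 2.28 UMIs per 500 over these groups in sham and from 3.94 to 3.46 to 2.63 in SCI blood. Mean S100a8 went the other way, from 16.1 to 25.4 to 36.2 in sham and from 16.4 to 23.4 to 38.4 in SCI blood. S100a9, Lcn2 and Mmp8 had the order of S100a8 in both libraries, with S100a9 at 40.2, 57.1 and 71.8 in sham and 41.0, 55.4 and 72.5 in SCI blood. Since the UMIs of a thinned barcode add up to a fixed number, a higher level of an abundant gene leaves less for others. The median depth before thinning was higher in the groups with more Retnlg too, from 1574 to 2158 UMIs in sham and from 1318 to 1936 in SCI blood, and its part was not tested. Barcodes with 5 or more Retnlg UMIs were 20.3% of sham and 32.3% of SCI neutrophil-like barcodes.

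**Figure D4:**
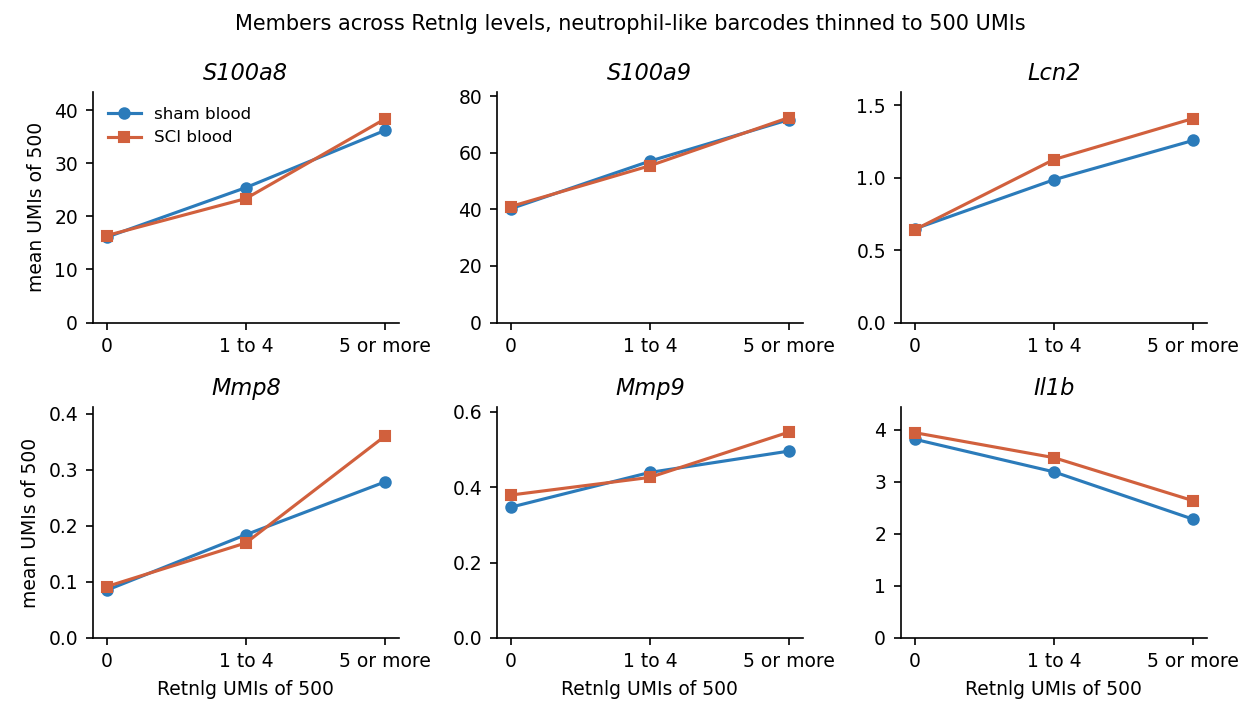
Mean UMIs per 500 of members in neutrophil-like barcodes grouped by thinned Retnlg UMIs (0, 1 to 4, 5 or more), for sham and SCI blood. Il1b is lower in groups with more Retnlg, from 3.81 to 2.28 in sham and from 3.94 to 2.63 in SCI blood, while S100a8, S100a9, Lcn2, Mmp8 and Mmp9 are higher in both libraries.

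Rank correlations over the 1789 neutrophil-like blood barcodes, computed on counts scaled to depth, gave the same picture. S100a8 and S100a9 had a Spearman rho of 0.846, and Retnlg had 0.523 with S100a9, 0.518 with S100a8 and 0.379 with Mmp8. Il1b had negative values with S100a8 (-0.397), S100a9 (-0.378), Retnlg (-0.351) and Mmp8 (-0.24). In sham and SCI blood taken apart the value for Il1b and Retnlg was -0.364 and -0.344. Camp and Ngp, with few UMIs, reached 0.163; both were detected in 9 sham barcodes, or 40.9% of the 22 with Camp and 11.2% of the 80 with Ngp. Barcodes of a library share its pool of animals, preparation and sequencing, so no p-value is attached. Among 2889 other genes detected in at least 5% of these barcodes, the most like the summed early genes were Lyz2 (0.326), Wfdc21 (0.324), Mgst1 (0.221), S100a6 (0.212) and Ly6g (0.188). Those most like Il1b were Malat1 (0.308), Junb (0.272), Ifitm2 (0.24), B2m (0.239) and Dusp1 (0.23).

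Naïve blood held 18 neutrophil-like barcodes. Against it, Camp and Ngp in sham blood passed the 2-fold rule only because 0 UMIs were read as 0.5; with a floor of 3 counts neither did, since both sham levels lie under the naïve limit of 167 CPM, so that no direction can be given. Of all genes 44.4% were past 2-fold in either direction under the first rule and 25.7% under the second. The 7 members detected in naïve blood lay between log2 -0.73 (Mmp8, -1.48 to 0.28) and 0.43 (S100a8, 0.33 to 0.54) in sham against naïve blood, where the median over all genes was -0.69 and over the 10 members 0.05. In SCI against naïve blood 0 of the 8 members with enough counts were past 2-fold, beside 36.6% of all genes, but 5 were with TMM factors and 5 with depth left in. The values ran from log2 -0.59 for Mmp9 to 0.87 for Ngp, whose naïve count was 0, and the median over all genes was -0.31. All 3 blood comparisons share libraries and are not independent of each other.

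The cord held 3 neutrophil-like barcodes, which carried 3411, 815 and 2607 mouse UMIs. The barcode with 815 UMIs had 94.2% of them on mitochondrial genes, 53 genes and no UMI of any member, so the cord values rest on the other 2. The first of these held 120 Il1b, 185 S100a8 and 417 S100a9 UMIs with 5 of Retnlg, 2 of Lcn2 and 2 of Mmp9. The other held 54 Il1b, 102 S100a8 and 265 S100a9 UMIs with 1 of Retnlg, 2 of Lcn2 and 4 of Mmp9. Both were thus rich in Il1b and the S100 genes and poor in Retnlg.

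Against SCI blood, Il1b in the cord was at log2 2.21 (95% interval 1.98 to 2.42), Retnlg at -3.40 (-4.96 to -2.39) and Lcn2 at -1.74 (-3.79 to -0.55). The direction for Il1b depended on how the barcodes were chosen, with log2 -3.14 under clustering centred within library and -4.46 under a marker gate. The 2 centred neutrophil-like clusters held 9 and 7 cord barcodes, against 3 in the main clustering, where 94.6% of cord mouse barcodes were macrophage-like. The reversal is thus one between different sets of cord barcodes, and the part of other cells in it was not tested. Il1b, Retnlg, Lcn2 and Mmp8, the last at 0 UMIs in the cord, were the 4 of 8 tested members past 2-fold. Of all 3389 genes tested 57.8% were past 2-fold (51.8% higher, 6.02% lower), so the count in both directions together is below the background. By direction, 1 member was higher and 3 were lower, so the lower share was above the background and the higher share under it. Mmp8 passed the rule only because 0 UMIs were read as 0.5, at log2 -2.67 with an upper limit of 0.22. Its level in SCI blood was 1.06 times the 3-count limit of the cord, which is within 2-fold. S100a8 was at log2 -0.29 (-0.47 to -0.13), S100a9 at -0.12 (-0.23 to -0.01) and Mmp9 at 0.24 (-1.32 to 1.25). All these ratios depended on the scaling too. TMM factors were 1.64 for the cord and 0.706 for SCI blood, so every cord ratio was lower with them. Il1b was then less far above SCI blood, and S100a8 and S100a9 were further below it. The median over all genes was 1.06, and over the members -0.20. Scaled to its own total, the first cord barcode stood at 36232 CPM of Il1b, above all 1204 sham and all 567 SCI blood neutrophil-like barcodes, whose highest values were 27491 and 27548 CPM. The other stood at 21574 CPM, and 7 sham and 3 SCI blood barcodes reached that level or more.

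Other mouse cells of the cord carried some members as well. The 88 macrophage-like barcodes held 232 Il1b UMIs in 17 barcodes (115 CPM), 67 S100a8 UMIs in 30 barcodes (33.1 CPM), 14 Mmp8 UMIs in 7 barcodes, 2 of S100a9 and 1 each of Ltf, Lcn2 and Mmp9. Camp, Ngp and Retnlg were at 0 in them. Of all cord Il1b UMIs, 41.7% lay in the 3 neutrophil-like barcodes and 55.6% in the macrophage-like ones, whereas 99.7% of S100a9 UMIs lay in the neutrophil-like barcodes. Of the 16 cord UMIs of Mmp8, 87.5% lay in macrophage-like barcodes, as did the 1 cord UMI of Ltf. When all mouse barcodes of the cord were used, Il1b was lower there than in SCI blood, at log2 -3.92 (-4.07 to -3.78).

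**Figure D5:**
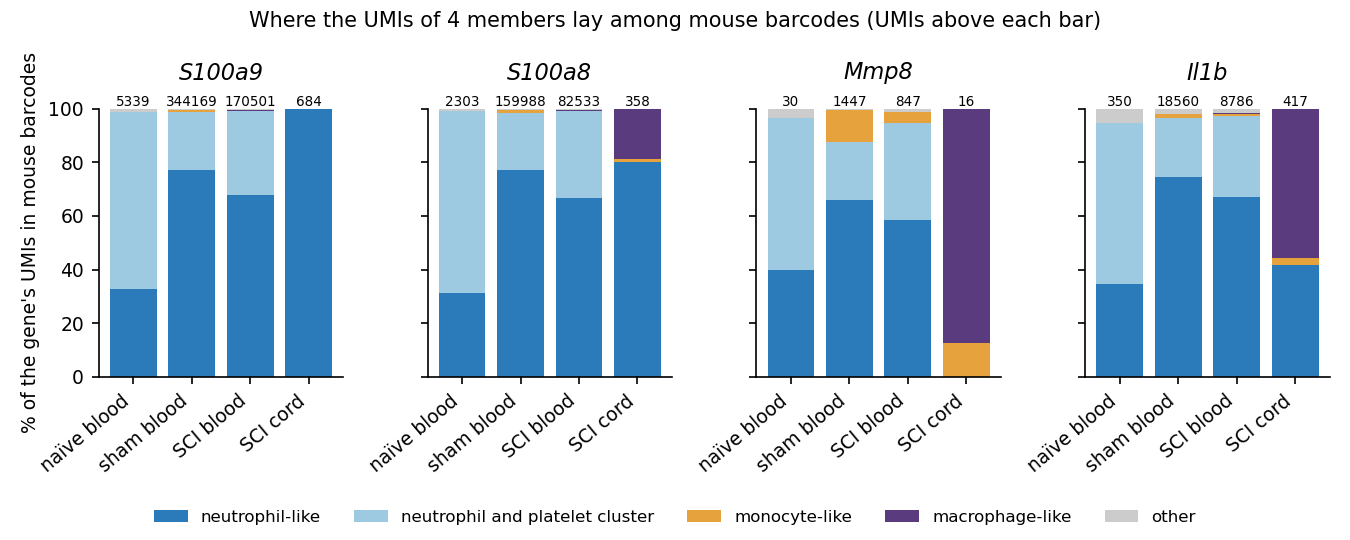
Share of the UMIs of 4 members (percent of all mouse-barcode UMIs of that gene) by cell population in each library, with the number of UMIs above each bar. In the cord 55.6% of Il1b UMIs but 0.3% of S100a9 UMIs lie in macrophage-like barcodes.

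Blood UMIs of the members were not all in the neutrophil-like clusters. A further cluster, led by platelet genes such as Clu and Gp9 in which 25 of the 26 neutrophil markers were also detected, held 28 naïve, 205 sham and 189 SCI barcodes. Its levels were near those of the neutrophil-like barcodes, with Il1b at 5885, 5976 and 5649 CPM and Retnlg at 7567, 6046 and 10069 CPM. In naïve blood it held more of the members' UMIs than the neutrophil-like clusters did, from 55.7% for Mmp9 to 72.8% for Lcn2 among the 7 late, S100 and Lcn2 genes, and it held the 1 Camp and 2 Ngp UMIs of that library. The interferon-led neutrophil-like cluster had Il1b at 6079 CPM in sham and 6202 in SCI blood, beside 6099 and 6484 in the larger cluster. Monocyte-like barcodes had lower levels, with S100a9 at 5601 CPM in sham and 2942 in SCI blood, and 0 UMIs of Camp, Ngp and Ltf in both. Mmp8 was nearer in both kinds of cell, at 323 CPM in sham and 288 in SCI monocyte-like barcodes.

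The members were also found in barcodes of other cells. In barcodes with most UMIs on human genes, S100a9 was present in 0.611% (naïve blood), 30.1% (sham blood) and 18.0% (SCI blood), with a median of 1 UMI where present, and median depths of 3695, 5260.5 and 4664 UMIs. Some of these barcodes held more, since 124 Retnlg UMIs lay in 4 naïve barcodes and 22601 S100a9 UMIs in 1497 sham barcodes. Il1b was present in 0.119%, 6.03% and 3.12% of them, Ngp in 0%, 0.121% and 0.191%, and Camp in 0%, 0.0201% and 0.0318%. Erythroid-like mouse barcodes had S100a9 in 0.414%, 16.3% and 10.8% and 0 UMIs of Camp, Ngp and Ltf in every blood library. The shares of neutrophil-like barcodes with a UMI of the blood libraries lay above these for every member detected, including Camp at 1.83% in sham and 1.23% in SCI blood, at a lower depth of 1759 and 1556 median mouse UMIs.

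Other genes of the pathway were read from fixed lists. None of 5 azurophil granule genes (Mpo, Elane, Prtn3, Ctsg and Ms4a3), which mark promyelocytes, had enough UMIs to be compared in neutrophil-like barcodes in any of the 4 comparisons. Between SCI and sham blood, 1 of 13 tested genes of specific and gelatinase granules was past 2-fold higher and 1 lower (median log2 0.14), and 1 of 16 genes of mature neutrophils was higher and 1 lower (median -0.01). None of 5 tested regulators of granulopoiesis and none of 7 tested IL-1 pathway genes was past 2-fold (medians 0.07 and 0.22), and 1 of 5 tested S100 genes and receptors was higher (median 0.17). With 6.89% of all genes past 2-fold in either direction, none of these counts is read as particular to a list. Wfdc17, a whey acidic protein of activated myeloid cells, was the highest at log2 2.38 (2.31 to 2.45), from 1043 CPM in sham to 5416 in SCI blood, followed by S100a10 at 1.59 on 20 UMIs. The lowest were Chil3 at log2 -1.70 (-3.04 to -0.71), with 68 UMIs in sham and 8 in SCI blood, and Ptgs2, the inducible cyclo-oxygenase, at -1.58 (-2.19 to -1.05). Of the 68 sham Chil3 UMIs, 35 lay in the 15 sham barcodes with at least 3 Camp, Ngp and Ltf UMIs.

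In the cord against SCI blood, 8 of 16 tested genes of mature neutrophils were higher and 4 lower (median log2 0.81), 3 of 12 other specific and gelatinase granule genes were higher and 5 lower (median -0.54), and 3 of 6 IL-1 pathway genes were higher and 0 lower (median 1.08, beside 1.06 over all genes). Of all genes 51.8% were higher and 6.02% lower, so the counts of higher genes were at or under the background. The shares of lower genes among the mature neutrophil and the granule genes were above it. Cxcl2, a neutrophil-attracting chemokine, was the highest at log2 5.56 (5.20 to 5.90), on 88 UMIs in the cord and 292 in SCI blood, or 15038 against 320 CPM, and Serpinb1a was next at 5.25 on 4 UMIs. Lrg1 at log2 -3.39 (-6.76 to -1.86) and Anxa1 at -2.03 (-4.07 to -0.84) were the lowest, on 2 and 4 cord UMIs. Against naïve blood, Cxcl2 had 894 UMIs in sham and 292 in SCI blood beside 0. These levels were 2.36 and 1.91 times the naïve 3-count limit, which is not a lower bound on the fold. The intervals of the log2 ratios for Cxcl2 had lower limits of 0.94 in sham and 0.63 in SCI blood. Ptgs2 had 233 UMIs in sham beside 0, a level under the naïve limit. Wfdc17 in SCI blood was at log2 2.75 (2.05 to 3.67), at 5416 against 779 CPM on 14 naïve UMIs. The lowest were Ager and Cebpe in sham and Icam1 and Padi4 in SCI blood, each on 1 naïve UMI.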

How the data were processed

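Sorted cells of 4 libraries were sequenced with 10x Genomics 3′ chemistry. The authors aligned them to combined human and mouse references (hg38 and mm10) with CellRanger 3.1.0 and deposited raw UMI counts per gene and barcode. UMIs per library ranged from 4206461 (cord) to 36487994 (SCI blood). The mouse reads were not part of the study's own analysis. The members, lists and cell markers were chosen with earlier results of these data known.

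Barcodes with over 50% mouse UMIs were clustered in scanpy 1.11.5 (counts per 10000, 2000 variable genes, 30 components, 15 neighbours, Leiden resolution 0.8) without the members, the listed genes, and ribosomal, mitochondrial and sex-linked genes. Clusters were named from fixed markers that exclude the members, at least 3 of them detected in 10% of barcodes. UMIs were summed per library and cell population and divided by the total outside ribosomal and mitochondrial genes, 3′ counts being left undivided by gene length. Log2 ratios used 0.5 added counts, with exact conditional binomial 95% intervals; CPM intervals are exact Poisson and shares Clopper-Pearson. The calculation was tested on simulated independent Poisson counts. These do not have UMIs gathered in few barcodes, as for Camp, Ngp and Ltf in sham blood, so the intervals were not checked for that case. No filter on barcodes was added to the deposited one. Scrublet marked 2, 5, 1 and 0 mouse barcodes, under 0.5%, and was not relied on; the highest scores were left out in an alternative. edgeR 4.0.16 (R 4.3.3) gave TMM factors for an alternative only. All 10 members are named, with the 2 highest and 2 lowest listed genes per comparison and the 5 genes most like the early sum and Il1b. The 2 motifs were searched in whole RefSeq windows of 250 bases, part of which can lie inside the annotated gene. Mmp9 had no entry. Alternatives changed the totals, barcodes, clusters, thinning and thresholds.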

Additional observations from a re-analysis of the deposited data

Results flagged for a closer look

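Mouse neutrophil transcripts were present in human barcodes of the operated libraries far above the naïve library, which served as the control. In sham blood 30.1% of 4972 human barcodes held a mouse S100a9 UMI, 15.3% S100a8, 6.03% Il1b and 3.12% Retnlg. In SCI blood 18.0% of 6283 human barcodes held S100a9, 8.99% S100a8, 3.12% Il1b and 2.50% Retnlg. The naïve shares of 6713 human barcodes were 0.611%, 0.358%, 0.119% and 0.0596%. These barcodes took no part in the comparisons between libraries. The number of neutrophil-like mouse barcodes was 1204, 567 and 18 in the same 3 libraries, and its part in these shares was not tested.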

How the results depend on the processing

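Alternatives that leave out barcodes kept the clusters as first made. No paired analysis was possible because each group had 1 library. SCI against sham blood (3 members past 2-fold) gave 1 with the mean of per-barcode CPM, 1 when thinned to 500 UMIs and 0 without the 5 barcodes richest in Camp, Ngp and Ltf, and the cord against SCI blood (4) gave 8 with clustering centred within library, 8 with a marker gate and 8 over all mouse barcodes. Sham against naïve blood (2) gave 5 with depth left in, 10 with centred clustering, 1 at Leiden resolution 0.4, 1 with the marker gate, 10 over all mouse barcodes, 0 when thinned, 5 at 1.5-fold, 0 with a 3-count floor, 1 with the platelet-gene cluster, 1 without the 5 richest barcodes, 4 without the interferon-led cluster and 4 when the components were kept at higher numerical precision. SCI against naïve blood (0) gave 5 with TMM factors, 5 with depth left in, 1 with the mean of per-barcode CPM, 8 with centred clustering, 8 over all mouse barcodes, 3 at 1.5-fold, 2 with no minimum count and 1 at higher numerical precision.

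The early share of naïve blood (9.28%) was 16.0% without marked doublets, 0% with centred clustering, 16.4% with Retnlg left out of the late genes and 0% with Lcn2 left out of the early genes. At higher numerical precision the clusters held 17 in place of 18 naïve barcodes and the share was 4.91%, so 1 barcode decided it. The sham share (13.8%) was 12.8% when thinned, 12.5% without the 5 richest barcodes, 24.0% without Retnlg and 1.60% without Lcn2. The SCI blood share (11.8%) was 12.4% at resolution 0.4, with the marker gate, over all mouse barcodes and with the platelet-gene cluster, 24.9% without Retnlg and 0.31% without Lcn2. The cord share (2.11%) was 0% when thinned and 0% without Lcn2. Reversed directions were Camp in sham against naïve blood (log2 -0.86 when thinned, -1.48 without the 5 richest), Mmp8 in the cord (0.22 when thinned) and Il1b in the cord (-3.14 with centred clustering, -4.46 with the marker gate, -3.92 over all mouse barcodes). The causes were not tested. A filter on median absolute deviations left no cord neutrophil-like barcode and so gave no cord value. The floor, the platelet-gene, richest-barcode, interferon-led and precision settings were chosen after seeing the data. Among the counts and shares 111 other values moved little, and 43 moved.

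With 1 library per group no difference can be separated from variation between pools of animals. Depth limits naïve blood and the cord most, since 18 and 3 neutrophil-like barcodes put 3 counts at 167 and 513 CPM. The sort was meant to leave mouse cells out, and how the gate differed between libraries was not tested. Mouse transcripts were also present in human barcodes, and their source was not tested.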
